A study of Mus musculus with 8 samples.

Results

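Followed here in mouse kidney were 10 genes of the circadian clock, namely Arntl (also named Bmal1), Clock, Npas2, Per1, Per2, Per3, Cry1, Nr1d1, Dbp and Ciart. They were taken by symbol, and all 10 had a row in a table of 30153 mouse gene identifiers. The table holds TPM (an abundance, in transcripts, corrected for transcript length and scaled to a fixed total) from 8 kidneys of C57/BL6 mice. All 8 animals carried haplotype II of the human angiotensin receptor type 1, overexpressed according to the series title, and all received a western diet. The labels call 4 of the animals adult and 4 aged, with 1 library from each, and the comparison is between these ages. The sources used here do not give ages in months, the time of day at which kidneys were taken or the promoter of the transgene. The labels do not give the sex of the animals.

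The clock is a transcriptional feedback loop present in nearly every cell. ARNTL pairs with CLOCK or its relative NPAS2, binds E-box sequences and switches on Per, Cry, Nr1d1, Dbp and Ciart, whose proteins feed back on the loop: PER, CRY and CIART inhibit the ARNTL complex, and NR1D1 represses Arntl through ROR elements. DBP carries the rhythm to further genes through D-boxes. In kidney the clock is known for daily rhythms of sodium, potassium and water excretion, and the abundance of its transcripts depends on the hour of sampling.

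The libraries differed in ways that touch every value below. Kidney epithelial markers were measured at all 8 genes listed for them, and their sum ranged from 696 to 3378 TPM in adult and from 593 to 3064 TPM in aged libraries. Of 11 markers of other cell types 5 were tested, and none passed between the ages by limma adjusted p. Of these 5, 2 had an unadjusted p under 0.05, against 3.39% of all genes tested. The urothelial gene Upk1a was at 1.18 to 3.08 TPM in adult and 0.362 to 0.488 TPM in aged libraries (log2 fold change −0.89, limma adjusted p = 1.00). Its groups did not overlap, as for 2.46% of all genes tested, while those of Upk2, also urothelial and too low to test, did. Jchain of plasma cells had a log2 fold change of 1.18 (adjusted p = 1.00). The other leukocyte genes listed, Ptprc and Cd79a, had −0.01 and 0.23. The haemoglobin gene Hba-a1 ran from 49.0 to 685 TPM, and the sum of this list was 113 to 715 TPM in adult and 81.2 to 581 TPM in aged libraries. The adrenal cortex enzymes Cyp11b1 and Cyp11b2 were listed at 0 in every library, and the fat markers Adipoq and Plin1 summed to at most 3.49 TPM. The part of these markers in the clock values was not tested. Summed Y-linked transcripts (Ddx3y, Kdm5d, Eif2s3y and Uty) were at most 2.30 TPM in replicates 1 and 2 of both groups and at least 34.7 TPM in replicates 3 and 4, a split that the labels do not name. The size factor of a library, its median ratio to the geometric mean over libraries, lay between 1.02 and 1.49 in the 4 without and between 0.685 and 0.981 in the 4 with Y-linked transcripts. Mitochondrially encoded genes held 19.6% to 26.1% of the TPM scale in adult and 26.8% to 46.9% in aged libraries. TPM keeps no read depth, so the counting error of these low values is unknown. In whole tissue, fewer cells of a type and less RNA per cell cannot be told apart.

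None of the clock genes differed between adult and aged kidneys by the test used. Of the 10 genes, 8 reached the mean of 1 TPM required for testing, and Npas2 and Cry1 did not. By limma on log2(TPM + 1), adjusted over all 11796 genes tested, 0 of the 8 had an adjusted p under 0.05 (adjusted p = 1.00 for each) and 0 had an unadjusted p under 0.05. Over all genes tested these rules called 0.00% and 3.39%. None of the 8 had adult and aged values that did not overlap, against 2.46% of all genes tested. Of the tested clock genes, 5 had a positive and 3 a negative difference, with a median log2 fold change of 0.20. Over all genes tested 65.0% were negative, with a median of −0.11. Intervals on the differences were wide, so the absence of calls does not show that the groups were alike. They come from a fit without the Y-linked split, so spread between its 2 classes is part of them. With the split as a covariate 0 clock genes passed, and unadjusted p fell under 0.05 for 998 of all genes instead of 400.

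**Figure D1:**
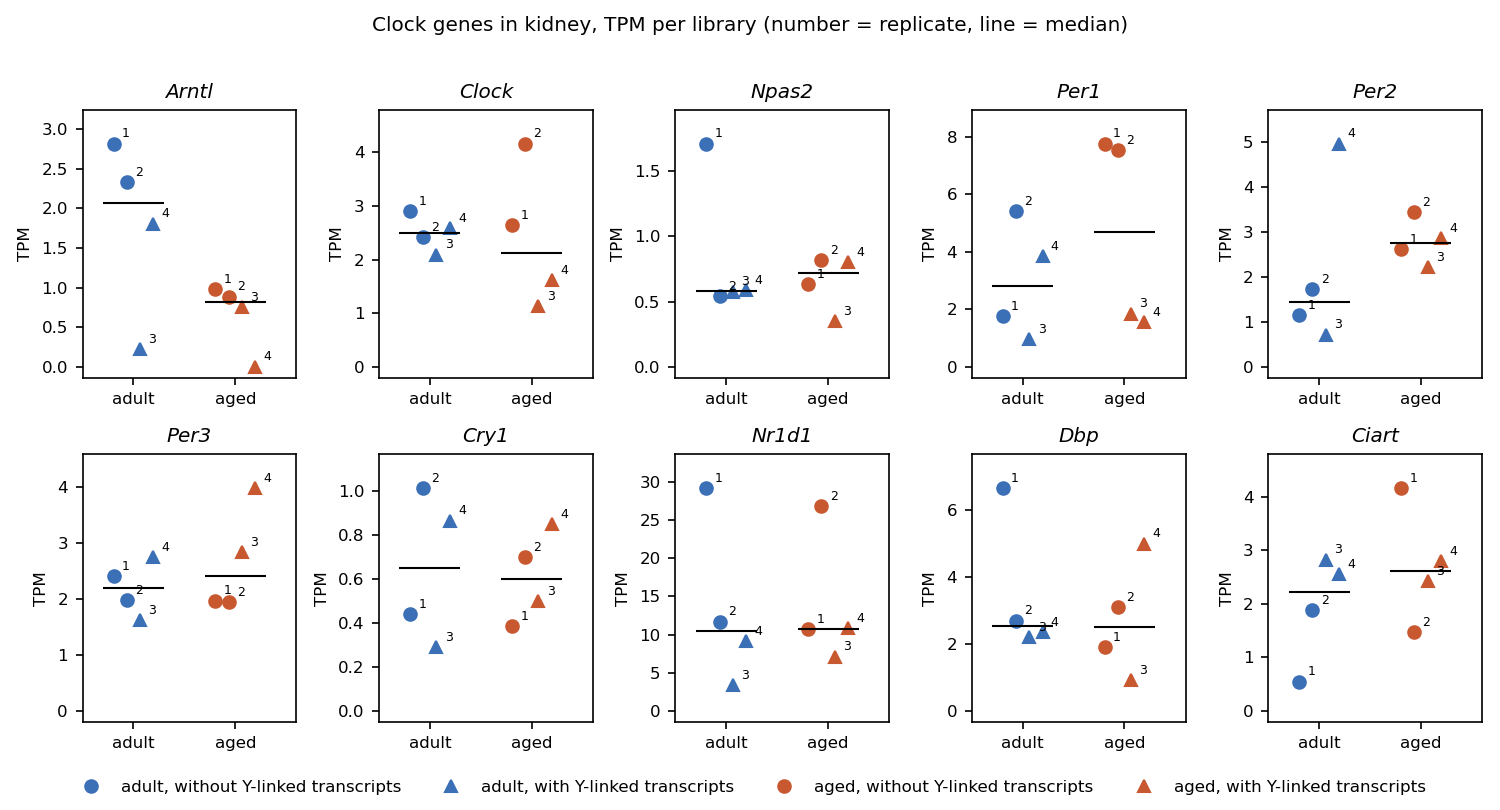
TPM of each of the 10 clock genes (vertical axis, own scale per gene) in the 4 adult and 4 aged kidneys, with replicate numbers beside the points, the group median as a line, and symbols for libraries with or without Y-linked transcripts. Adult and aged points overlap for every gene, and Arntl shows 3 adult points above all aged ones with adult replicate 3 at 0.223 TPM.

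Nr1d1 was the most abundant of the 10 in each of the 8 libraries, with a mean of 13.6 TPM. Per1 (3.84 TPM), Dbp (3.11), Per2 (2.46), Clock (2.44), Per3 (2.43) and Ciart (2.33) followed, and their ranges over libraries overlapped, so their order is not resolved. Npas2 (0.752) and Cry1 (0.629) averaged under 1 TPM, and Arntl, listed at 0 in 1 library, reached at most 2.82 TPM. Within 1 gene the highest library exceeded the lowest by between 2.46 (Per3) and 8.61 times (Nr1d1), leaving out Arntl. The coefficient of variation over the 8 libraries had a median of 57.3% for the 8 tested clock genes, with the 0 of Arntl counted as deposited, and of 43.7% for the 4407 genes with a mean between 1 and 5 TPM.

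The activator Arntl (ENSMUSG00000055116, chromosome 7 at 113207465 to 113314126, GRCm38) did not pass between the ages. Its adult libraries had 2.82, 2.33, 0.223 and 1.81 TPM (replicates 1 to 4), and its aged libraries 0.984, 0.886, 0.756 and 0 TPM. The other 3 adult kidneys lay above all aged ones, and adult replicate 3 lay below all but the aged library listed at 0. An exact 0 in such a table can be a failed estimate, so no mean and SD are given for Arntl, while the filter, fits and correlations use the 0 as deposited. The log2 fold change was −0.68 (SE 0.39, 95% interval −1.54 to 0.17, limma adjusted p = 1.00). It was −0.46 without aged replicate 4, the library at 0, and −1.04 without adult replicate 3. Its size depended on the pseudocount, with −1.39 at 0.1 TPM and −0.25 at 5 TPM in place of 1. Without adult replicate 1, Arntl fell under the mean of 1 TPM and was not tested. With the Y-linked split as a covariate, its log2 fold change over all libraries was again −0.68 (limma adjusted p = 0.592).

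RefSeq lists 2 starts for Arntl, and the window from 250 bases before to 50 after the downstream one holds 2 matches to a core ROR element (TAGGTNA, both strands, not overlapping any other motif searched), the sequence through which NR1D1 and the ROR receptors act. They are shown because Arntl and its repressor Nr1d1 form an accessory loop of the clock. Each stretch is 30 bases on the plus strand of GRCm38.p6, with the match in capitals, at chr7:113207494-113207523 and chr7:113207530-113207559.
Arntl, upstream match: tggtcggaaagTAGGTTAgtggtgcgacat
Arntl, downstream match: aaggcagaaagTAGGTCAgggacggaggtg
The motif occurs in 8.29% of all 32851 promoter windows of that length. Of the 9 clock genes with a window in that table, Arntl was the only one that held it, in 2 of the 13 windows of these genes. Both are windows of Arntl that overlap and share the upstream match, so they are not independent counts.

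The partners of ARNTL did not pass either. Clock (ENSMUSG00000029238) had 2.91, 2.42, 2.09 and 2.59 TPM in the 4 adult and 2.64, 4.16, 1.13 and 1.62 TPM in the 4 aged animals. The adult values lay close together, at 2.501 ± 0.339 TPM, within the wider aged range of 2.39 ± 1.34 TPM (SD, n = 4 each). The difference was −0.13 on the log2 scale (SE 0.31, 95% interval −0.81 to 0.56). It turned to 0.07 on leaving out aged replicate 3, and likewise to 0.07 on removing the mitochondrial genes and rescaling. Npas2 (ENSMUSG00000026077), which can replace Clock, had 1.71, 0.540, 0.576 and 0.587 TPM in the 4 adult and 0.632, 0.819, 0.349 and 0.801 TPM in the 4 aged animals. Apart from adult replicate 1, its values stayed under 1 TPM, and it was not tested for that reason. Without the filter its log2 fold change was −0.13 (limma adjusted p = 1.00).

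Among the Period genes, which encode the slow-acting repressors of the loop, Per1 had the widest interval. Per1 (ENSMUSG00000020893, chromosome 11 at 69095217 to 69109960) had 1.75, 5.42, 0.946 and 3.86 TPM in the 4 adult and 7.76, 7.54, 1.85 and 1.56 TPM in the 4 aged animals. Aged replicates 1 and 2 were the highest of all 8, and aged replicates 3 and 4 lay below adult replicates 2 and 4. The log2 fold change was 0.43 (SE 0.51, 95% interval −0.68 to 1.54). Leaving out adult replicate 3 lowered it to 0.13, and leaving out either of the 2 highest libraries to 0.14 and 0.15. It was 0.02 with array weights, which down-weight variable libraries. Per2 (ENSMUSG00000055866) had 1.14, 1.72, 0.715 and 4.97 TPM in the 4 adult and 2.63, 3.45, 2.21 and 2.87 TPM in the 4 aged animals. All aged values lay above 3 of the adult ones and below adult replicate 4. Its log2 fold change was 0.44 (SE 0.37, 95% interval −0.38 to 1.25). It was 0.80 without adult replicate 4, 0.20 without adult replicate 3 and −0.20 with array weights.

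Per3 (ENSMUSG00000028957, chromosome 4 at 151003652 to 151044665) had the narrowest range of the 10 as deposited, at 2.46 times. With size factors it ranged over 2.80 times, more than Clock (1.93) and Npas2 (2.46). It had 2.41, 1.98, 1.62 and 2.75 TPM in the 4 adult and 1.97, 1.94, 2.83 and 3.98 TPM in the 4 aged animals. Aged replicates 3 and 4 were the highest of all 8, while aged replicates 1 and 2 fell inside the adult range. The log2 fold change was 0.19 (SE 0.28, 95% interval −0.42 to 0.79), and 0.03 without aged replicate 4. Cry1 (ENSMUSG00000020038), the partner of the PER proteins in repression, was at most 1.01 TPM in any library and was not tested. It had 0.438, 1.01, 0.289 and 0.864 TPM in the 4 adult and 0.384, 0.699, 0.499 and 0.849 TPM in the 4 aged animals, and without the filter its log2 fold change was −0.02 (limma adjusted p = 1.00).

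Promoters of Per1, Per3 and Ciart are shown because they hold the 2 sequence classes of the loop, the E-box CACGTG, bound by the ARNTL complex, and the D-box TTATGNAA, bound by DBP and its relatives. Each is the 250 bases before a RefSeq start, read 5′ to 3′ on the strand of the gene in GRCm38.p6, with matches on either strand in capitals. No match overlapped another. Per1 (the upstream of 2 listed starts, chr11:69098699-69098948, plus strand) has 1 E-box 166 and 1 D-box 24 bases before the start. Per3 (chr4:151044666-151044915, minus strand) has 2 D-boxes, and Ciart (chr3:95882229-95882478, minus strand) has 3 E-boxes.
Per1: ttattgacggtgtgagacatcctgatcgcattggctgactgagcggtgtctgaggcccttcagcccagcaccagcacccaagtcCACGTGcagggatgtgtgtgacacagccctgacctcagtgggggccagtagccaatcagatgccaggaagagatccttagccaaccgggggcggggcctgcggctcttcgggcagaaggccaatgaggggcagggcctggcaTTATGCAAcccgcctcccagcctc
Per3: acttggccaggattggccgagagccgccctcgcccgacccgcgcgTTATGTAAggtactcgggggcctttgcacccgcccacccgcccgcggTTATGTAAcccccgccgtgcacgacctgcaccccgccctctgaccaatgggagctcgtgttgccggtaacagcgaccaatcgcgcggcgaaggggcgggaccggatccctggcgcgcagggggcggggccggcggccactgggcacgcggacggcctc
Ciart: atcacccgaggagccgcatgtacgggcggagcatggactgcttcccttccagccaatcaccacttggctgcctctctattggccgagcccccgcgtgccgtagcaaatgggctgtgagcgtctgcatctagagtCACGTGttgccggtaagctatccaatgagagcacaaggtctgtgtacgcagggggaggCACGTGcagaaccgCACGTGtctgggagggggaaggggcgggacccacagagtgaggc
Among the 9 clock genes with a window, an E-box occurred in 3 (Per1, Cry1 and Ciart) and a D-box in 2 (Per1 and Per3), counting the 250 bases before and 50 after each of 13 listed starts. Counted by window, 3 of the 13 held an E-box and 2 a D-box, and of all windows of that length 7.15% and 3.38% did. A cyclic AMP response element (TGACGTCA) was found in none of the 13, and in 1.79% of all windows. A match is a description of letters, and no binding was measured here.

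Ciart, Nr1d1 and Dbp are direct targets of the ARNTL complex, and none of the 3 passed between the ages. Ciart (ENSMUSG00000038550, also known as Chrono), a repressor of that complex, had 0.544, 1.89, 2.82 and 2.55 TPM in the 4 adult and 4.16, 1.47, 2.42 and 2.80 TPM in the 4 aged animals. The lowest value was adult replicate 1 and the highest aged replicate 1, with the other 6 between them. Its log2 fold change was 0.36 (SE 0.35, 95% interval −0.41 to 1.14), and 0.08 without adult replicate 1.

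Nr1d1 (ENSMUSG00000020889, chromosome 11 at 98767932 to 98775333), which encodes the nuclear receptor REV-ERBα that represses Arntl, had 29.2, 11.7, 3.39 and 9.13 TPM in the 4 adult and 10.7, 26.9, 7.11 and 10.8 TPM in the 4 aged animals. Adult replicate 1 and aged replicate 2 stood above all other libraries, and replicate 3 was the lowest of each group. Means were 13.4 ± 11.1 and 13.9 ± 8.84 TPM (SD, n = 4 each), with a log2 fold change of 0.22 (SE 0.54, 95% interval −0.97 to 1.41). The sign turned without adult replicate 3 (−0.24) or aged replicate 2 (−0.14). Of its exonic bases 8.55% overlap Thra on the opposite strand. The libraries were stranded, but whether quantification used strand is not stated in the sources, so the value of Nr1d1 is uncertain. Thra had 10.3 to 34.0 TPM, and was also highest in adult replicate 1.

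Dbp (ENSMUSG00000059824, chromosome 7 at 45705088 to 45710203), the output factor, had 6.67, 2.70, 2.20 and 2.37 TPM in the 4 adult and 1.91, 3.11, 0.909 and 5.003 TPM in the 4 aged animals. Adult replicate 1 stood far above the other adult libraries, and the remaining 3 lay inside the aged range. Its log2 fold change was −0.29 (SE 0.40, 95% interval −1.18 to 0.60), 0.00353 without adult replicate 1, and 0.15 with array weights. Exons of Sphk2 on the opposite strand overlap 18.0% of the exonic bases of Dbp, with the same uncertainty as for Nr1d1. Sphk2 was highest and lowest in the same libraries as Dbp, at 11.4 TPM in adult replicate 1 and 1.59 TPM in aged replicate 3. The part of Sphk2 in the values of Dbp was not tested.

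**Figure D2:**
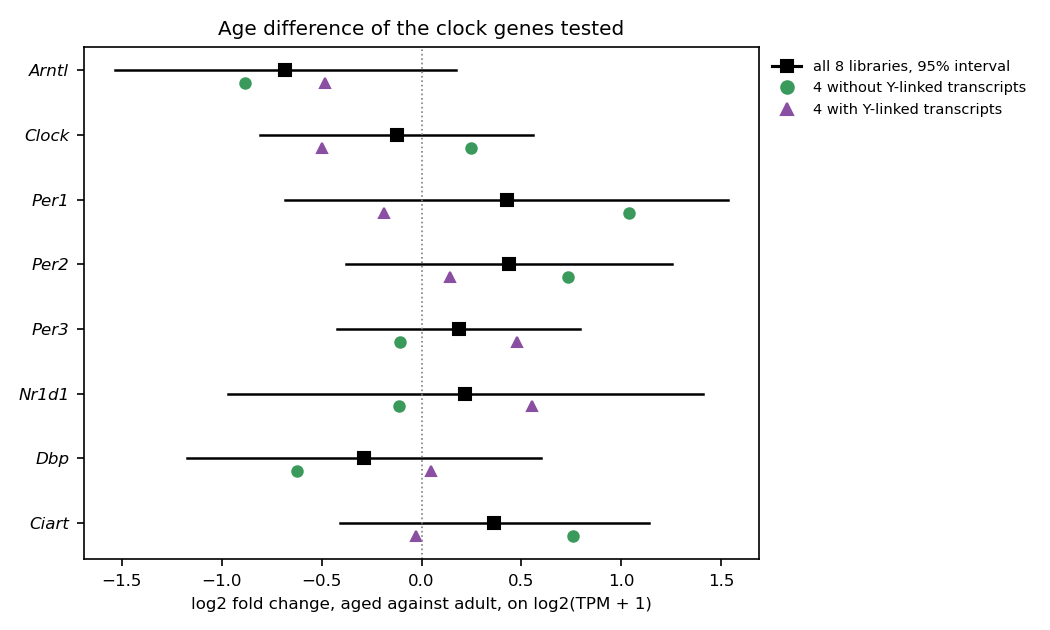
Log2 fold change of the 8 tested clock genes, aged against adult, on the log2(TPM + 1) scale (horizontal axis), as a square with its 95% interval over all 8 libraries, and below it the value in the 4 libraries without (circle) and the 4 with (triangle) Y-linked transcripts. All 8 intervals include 0, and for 6 genes (all but Arntl and Per2) circle and triangle lie on opposite sides of 0. The share of all genes for which they do was not computed.

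Within the classes of libraries with and without Y-linked transcripts, 2 adult and 2 aged animals each, the age differences had opposite signs for several genes. Some of these values were near 0, and the share of all genes with opposite signs was not computed. Without Y-linked transcripts, Per1 had a mean of 3.59 TPM in adults and 7.65 TPM in aged animals, a log2 fold change of 1.04, and 2.40 and 1.70 TPM in those with them, −0.19. For Ciart the values were 0.76 and −0.03, for Clock 0.25 and −0.50, for Dbp −0.62 and 0.05, for Nr1d1 −0.12 and 0.55, and for Per3 −0.11 and 0.48. Arntl had −0.88 and −0.48, and Per2 0.73 and 0.14, so that these 2 kept their sign in both classes. The difference between the classes was tested by an interaction term in limma. None of the 8 passed (adjusted p = 1.00 for each) and 0 had an unadjusted p under 0.05, against 0.0339% and 2.08% of all genes tested. The largest interaction was that of Per1, at −1.23 (SE 0.72).

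Between the classes themselves, with age in the model, 0 of the 8 tested clock genes passed, where 12.4% of all genes tested did. Nr1d1 had a mean of 19.6 TPM in the 4 libraries without Y-linked transcripts against 7.61 TPM in the other 4 (log2 difference −1.22, SE 0.41, limma adjusted p = 0.0704). Per1 averaged 5.62 and 2.05 TPM (−1.07, SE 0.39, adjusted p = 0.0868), and Arntl −0.75 on the log2 scale (SE 0.31, adjusted p = 0.109). For no clock gene did the classes separate without overlap, against 22.6% of all genes tested. The median of all genes in this comparison was −0.46. With size factors, the differences were −0.70 for Nr1d1 (adjusted p = 0.243) and −0.68 for Per1 (adjusted p = 0.409), and the call rate over all genes was 5.44%. Single clock genes passed when a library was left out. Per1 passed without adult replicate 1 (limma adjusted p = 0.0467) or adult replicate 4 (0.0373), and Nr1d1 without aged replicate 1 (0.0374). The share of all genes called was not computed for these fits or for the quantile normalization below. It was 12.4% in the main fit, and single calls among the 8 are not told apart from such a background. Ciart, Per3 and Per2 had positive differences. Ciart averaged 2.02 TPM in the libraries without against 2.65 TPM in those with Y-linked transcripts, a log2 difference of 0.41 as deposited and 0.75 with size factors (limma adjusted p = 0.265). Per3 averaged 2.07 and 2.80 TPM, with 0.27 as deposited and 0.66 with size factors (adjusted p = 0.0606), and it passed with quantile normalization (adjusted p = 0.0401). Per2 had 0.11 and 0.46 (adjusted p = 0.501 with size factors), and Dbp turned from −0.37 to 0.04. In this comparison 3 of the 8 kidney epithelial markers passed, all lower in the libraries with Y-linked transcripts, and their part in the clock values was not tested.

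The clock genes differed in how they ran with the size factor of the library. Across the 8 libraries the Pearson correlation of log2(TPM + 1) with the log2 size factor was 0.92 for Nr1d1, 0.78 for Npas2, 0.77 for Clock and 0.75 for Dbp. It was 0.59 for Arntl, 0.45 for Per1, 0.29 for Cry1, 0.10 for Per2, −0.09 for Per3 and −0.68 for Ciart. These are descriptions over 8 libraries that share the split described above. Dividing TPM by the size factor narrowed the range of Nr1d1 from 8.61 to 4.40 times between lowest and highest library. That of Clock narrowed from 3.70 to 1.93 times, while that of Ciart widened from 7.66 to 11.2 times. These changes go with the correlations above and are no separate observation. The summed kidney epithelial markers were likewise highest in adult replicate 1 and aged replicate 2 and lowest in replicate 3 of both groups. Slc34a1 (1279 TPM) and Umod (1477 TPM) made up most of that sum in adult replicate 1 (3378 TPM). Of the 8 markers only Aqp2 and Atp6v1g3 were highest elsewhere, in adult replicate 2 (190 and 52.1 TPM) and aged replicate 1 (81.3 and 47.5 TPM). Atp6v1g3 was lowest among adults in replicate 4, and Slc34a1 lowest among aged libraries in replicate 1. The part of these markers in the values of Nr1d1 was not tested.

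**Figure D3:**
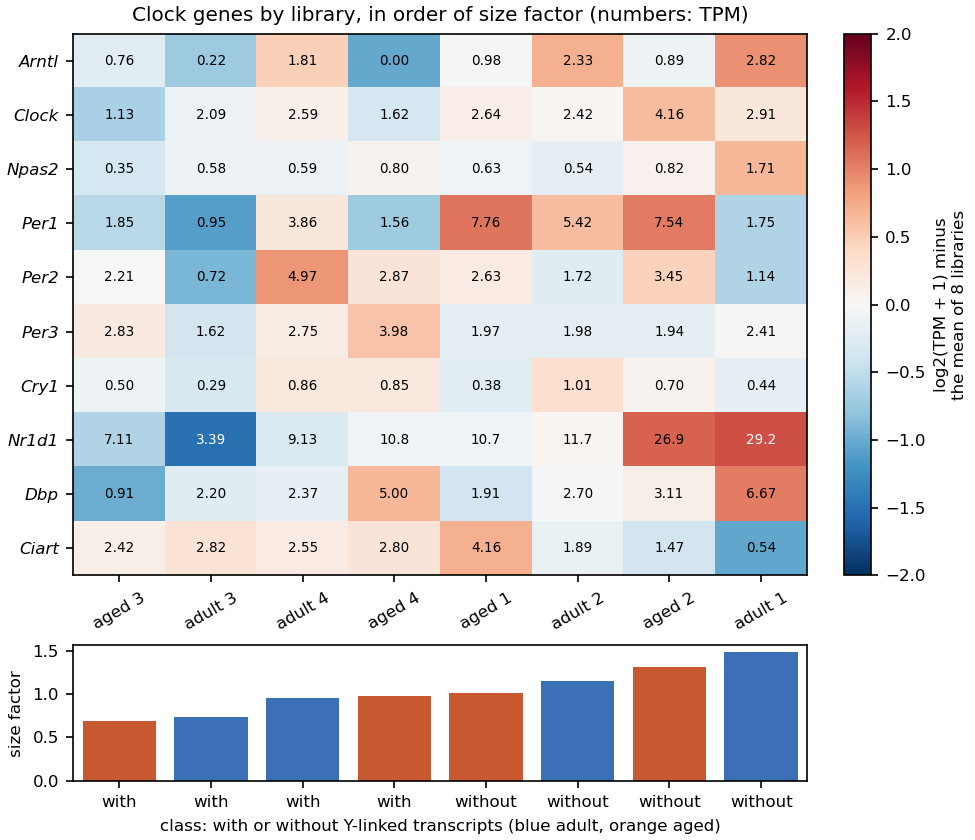
Colour shows log2(TPM + 1) of each clock gene (rows) minus its mean over the 8 libraries (columns, ordered by size factor), with the TPM printed in each cell; bars below give the size factor and the class of each library. Nr1d1 runs from 7.11 and 3.39 TPM at the left to 26.9 and 29.2 TPM at the right, and Ciart has its lowest value, 0.544 TPM, in the rightmost column.

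Pairs of clock genes were compared across the 8 libraries, since in a clock sampled at different phases activators and targets are known to run in opposition. Of 45 pairs 31 had a positive and 14 a negative Pearson r, with a median of 0.19 as deposited and −0.03 with size factors. After Benjamini-Hochberg adjustment over the 45 pairs, 0 passed by Pearson or Spearman correlation with exact two-sided permutation, and 3 had an unadjusted Pearson p under 0.05. The highest r was that of Npas2 with Dbp, 0.887 over n = 8 (exact permutation p = 0.00149, adjusted p = 0.0670), with Spearman's rho at 0.762 (exact permutation p = 0.0368, adjusted p = 0.518). Without adult replicate 1 and aged replicate 3 that r was 0.710 over 6 libraries, and it was 0.804 with size factors. The permutation treats the 8 libraries as exchangeable, though they share the split by Y-linked transcripts.

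None of the 4 Arntl pairs fixed for report passed. Arntl with Nr1d1 had r = 0.522 and rho = 0.548 (n = 8, exact permutation p = 0.187 and 0.171, adjusted p = 0.651 and 0.699), and Arntl with Npas2 r = 0.369 and rho = 0.190 (exact permutation p = 0.389 and 0.665, adjusted p = 0.791 and 0.935). With Dbp it had r = 0.181 and rho = 0.262 (exact permutation p = 0.667 and 0.536, adjusted p = 0.889 and 0.899), and with Per3 r = −0.259 and rho = −0.0952 (exact permutation p = 0.545 and 0.840, adjusted p = 0.873 and 0.956). Without adult replicate 1 and aged replicate 4, the libraries farthest from the median of Arntl, r was 0.451 with Nr1d1, 0.0112 with Npas2, 0.314 with Dbp and 0.372 with Per3. With size factors, r over all 8 libraries was 0.288 with Nr1d1, −0.167 with Npas2, −0.336 with Dbp and −0.385 with Per3, so that the sign turned for Npas2 and Dbp. Arntl had its strongest r as deposited with Ciart, a pair named after its values were seen, at r = −0.583 and rho = −0.548 (n = 8, exact permutation p = 0.125 and 0.171, adjusted p = 0.609 and 0.699). That r was −0.254 without the same libraries and −0.435 with size factors. The classes of 4 libraries are too small for a correlation within each.

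By likeness of pattern, the 5 genes with the highest Pearson r to Arntl over the 8 libraries, among 7388 genes with a mean of at least 5 TPM, were Pnpt1 (0.948), Gm7332 (0.939), Ric8a (0.927), Nudt22 (0.927) and Ercc1 (0.922). For Dbp they were Ctnnbl1 (0.968), Ndufaf1 (0.963), Slc6a20a (0.955), Nr3c1 (0.953) and Lasp1 (0.948). Nr3c1 encodes the glucocorticoid receptor, and had 17.7, 9.52, 7.67 and 9.62 TPM in the 4 adult and 8.77, 11.9, 6.77 and 12.7 TPM in the 4 aged animals. None of these 10 is a clock gene of the lists used here. They are the top of a ranking over many genes and few libraries, given with no test.

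The rest of the pathway was described by 4 lists with 29 genes, of which 25 were measured at a mean of at least 1 TPM. None of the 25 passed between adult and aged kidneys by limma adjusted p, and 0 had an unadjusted p under 0.05, against 0.00% and 3.39% of all genes tested. By sign, 17 had positive and 8 negative differences, with a median of 0.08, where 65.0% of all genes tested were negative. Each of these genes had overlapping groups, and only 2.46% of all genes tested did not.

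Other genes of the core loop numbered 7, with 4 tested, 2 positive and 2 negative by sign (median 0.07). Nr1d2, the close relative of Nr1d1, had 26.7 ± 1.05 TPM in adults against 26.1 ± 3.55 TPM at the older age (SD, n = 4 each; log2 fold change −0.04, SE 0.22). Cry2, a relative of Cry1, had 2.61 ± 1.70 and 2.27 ± 0.933 TPM (−0.05, SE 0.38). Bhlhe40, an E-box repressor, had 27.6 ± 20.7 and 30.1 ± 11.01 TPM (0.36, SE 0.50), and Rora 4.51 ± 1.43 and 5.17 ± 1.21 TPM (0.18, SE 0.28). Rorb, Bhlhe41 and Arntl2 were too low to be tested.

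All 3 genes of the D-box list were tested, with a median of 0.08. Tef and Hlf, relatives of Dbp, were far more abundant than Dbp itself. Tef had 40.1 ± 9.57 TPM in adults against 44.6 ± 12.6 TPM at the older age (SD, n = 4 each; log2 difference 0.14, SE 0.28), and Hlf 18.4 ± 8.21 and 19.6 ± 8.65 TPM (0.08, SE 0.38). Nfil3, which opposes them at D-boxes, had 3.18 ± 0.832 and 3.62 ± 1.89 TPM (0.07, SE 0.34).

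Kinases, ubiquitin ligases and associated proteins that set the stability of PER and CRY were all 9 measured, 7 positive and 2 negative by sign, with a median of 0.09. Usp2, a rhythmic deubiquitinase, had 25.0, 25.0, 17.4 and 26.7 TPM in the 4 adult and 32.6, 51.2, 14.7 and 38.2 TPM in the 4 aged animals (log2 fold change 0.41, SE 0.35). Aged replicate 3 lay below all adult kidneys and the other 3 aged ones above them. Gsk3b had a log2 fold change of 0.23 (SE 0.32), Btrc, a ligase for PER, −0.22 (SE 0.41) and Timeless −0.14 (SE 0.27). In the class comparison Csnk1e, a kinase of PER, was 1 of 2 genes of the 4 lists to pass, lower in the libraries with Y-linked transcripts (log2 difference −0.80, limma adjusted p = 0.0492), a direction called for 11.3% of all genes tested.

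Of 10 genes known as outputs of the kidney clock or of its hormonal inputs, 9 were tested, 5 positive and 4 negative by sign (median 0.06). Sgk1, a kinase induced by aldosterone and glucocorticoids that raises sodium channel activity, had 30.02, 52.4, 18.0 and 40.3 TPM in the 4 adult and 92.0, 91.4, 31.5 and 31.6 TPM in the 4 aged animals. Aged replicates 1 and 2 exceeded all adult libraries, and aged replicates 3 and 4 fell within the adult range. Its log2 fold change was 0.70 (SE 0.44, limma adjusted p = 1.00). Tsc22d3, a glucocorticoid-induced gene, had 20.6 ± 11.4 and 28.1 ± 16.4 TPM (SD, n = 4 each, 0.43, SE 0.46), and Alas1, the first enzyme of haem synthesis, 34.3 ± 11.9 and 44.5 ± 22.6 TPM (0.29, SE 0.41). Aqp2, the vasopressin-regulated water channel, had 96.6 ± 70.1 and 65.1 ± 19.9 TPM (−0.29, SE 0.51). The vasopressin receptor Avpr2 was the other gene to pass in the class comparison (log2 difference −1.09, adjusted p = 0.0174). With size factors neither Avpr2 nor Csnk1e passed. Slc9a3, the proximal sodium-hydrogen exchanger, was listed at 0 in 7 of 8 libraries and was not tested. As for Arntl, an exact 0 can be a failed estimate, so these values do not show that Slc9a3 was absent.

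**Figure D4:**
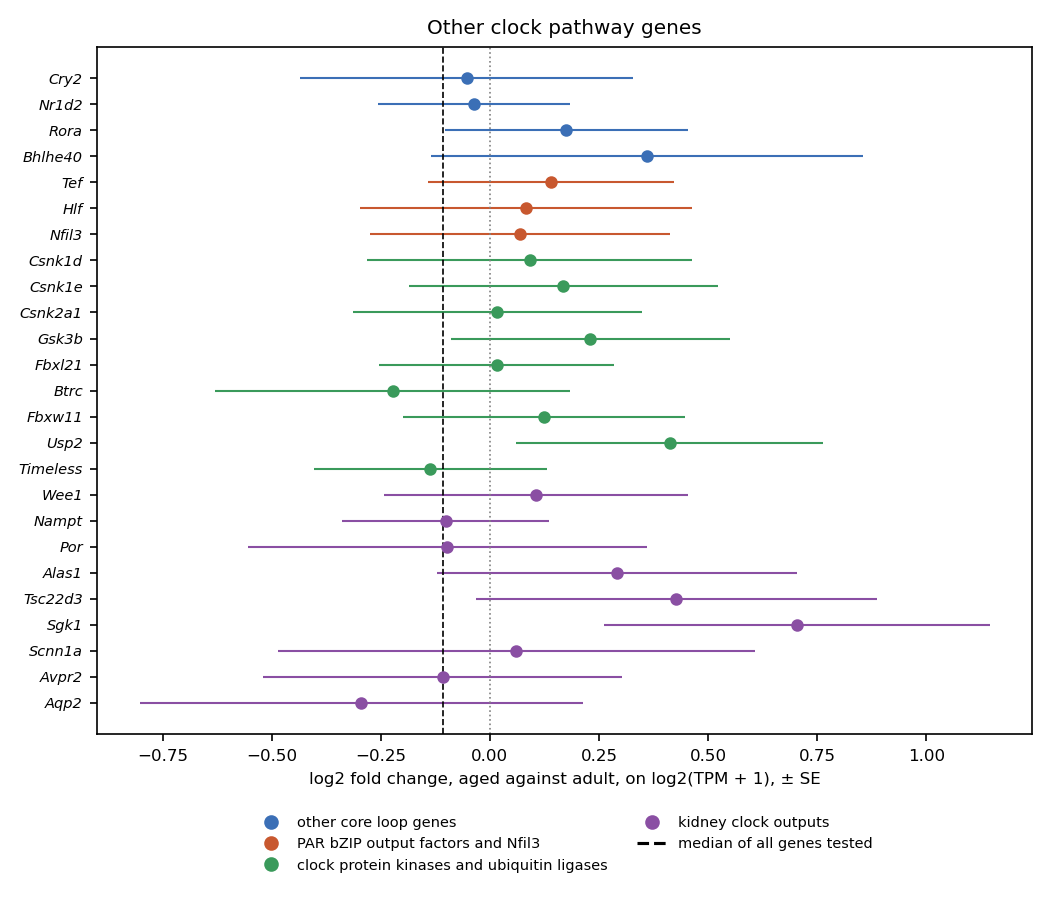
Log2 fold change, aged against adult, on log2(TPM + 1) (horizontal axis) with its SE for the 25 tested genes of the 4 lists, coloured by list, and the median of all genes tested (−0.11) as a dashed line. Sgk1 lies farthest to the right at 0.70 and Aqp2 farthest to the left at −0.29, and none passed the test.

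Immediate early genes, which respond within minutes to stimulation and to which Per1 and Per2 are related by their rapid induction, summed to between 28.0 and 104 TPM in adult and between 32.7 and 210 TPM in aged libraries. Of the 10 listed, 9 were tested, 8 with positive signs, a median of 0.62 and no call, where 65.0% of all genes tested were negative. Fosb was listed at 0 throughout. The sum was highest in aged replicates 3 (210 TPM) and 4 (110 TPM), the libraries in which Per1 was low at 1.85 and 1.56 TPM, followed by adult replicate 1 (104 TPM), where Per1 had 1.75 TPM. Adult replicate 3, with the lowest sum (28.0 TPM), also had the lowest Per1, 0.946 TPM. The part of these genes in the clock values was not tested.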

How the data were processed

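Kidney RNA of 8 mice, 4 adult and 4 aged, was extracted with a Qiagen kit and its polyadenylated fraction made into stranded libraries, per the labels. The authors deposited TPM values in 1 table. Kallisto, DESeq2 and the build GRCm38 are named, without versions or roles, per the submitters' processing notes. Which step made the TPM is not given in the sources used here. Columns were matched to samples by title, and 29732 of 30153 identifiers (98.6%) to symbols. Identifiers sharing a symbol were summed (7 symbols).

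Groups were compared by limma 3.58.1 (R 4.3.3) fitted to log2(TPM + 1), with its variance trend over intensity, in genes averaging at least 1 TPM, Benjamini-Hochberg adjusted over all of them at 0.05. This scale understates the change of low genes. The script was tested on simulated data. The class of libraries was set at 10 TPM of summed Y-linked transcripts. Replicates are separate animals, 4 per group according to the design text. Depth is unknown.

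The members, lists and tests were chosen with earlier results of these data known. Named were all members, up to 4 genes of smallest p per other clock list, Cry2, Nr1d2, Tef and Hlf always, and the 5 genes most like Arntl and Dbp. Csnk1e, Avpr2, markers of other cell types and genes too low to test were named after their values were seen. Some genes of these lists were left out of the counts and are not reported here. Positions came from GENCODE M21 and promoters from RefSeq (GRCm38.p6), matched by symbol for 9 of 10 members. Alternatives were pseudocounts of 0.1 and 5, other filters and scalings, limma options, a replicate block, class, and each library left out.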

Additional observations from a re-analysis of the deposited data

Results flagged for a closer look

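Both flagged values came from adult replicate 1. Npas2 had 1.71 TPM there, while the other 3 adult libraries had 0.540 to 0.587 TPM. Dbp had 6.67 TPM there, against 2.20 to 2.70 TPM in the other 3. In both cases the gap to the nearest adult library, on the log2(TPM + 1) scale, was a larger share of the group's whole range than Dixon's test allows for 4 samples. Of 20 groups of 4 examined, 2 were flagged, and chance flags about 1 in 20. Sphk2, whose exons overlap those of Dbp on the opposite strand, was also highest in adult replicate 1, at 11.4 TPM.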

How the results depend on the processing

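No alternative called a clock gene between adult and aged kidneys, under any setting run or library left out. The count of all genes called was 0, and became 1 with array weights, 3 when only libraries lacking Y-linked transcripts were kept, 60 when only the others were, and 0 to 2 with 1 library left out. The cause was not tested.

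The replicate number shared by the groups was not taken as pairing, since the labels tie it to no shared animal or day and not every same-numbered pair correlated above 0.1 in its deviations from the group means (0.04, 0.18, 0.49 and 0.42). The number runs with the class of libraries: every pair of adult and aged libraries of the same class correlated positively and every pair of different class negatively, and adult replicate 1 correlated best with aged replicate 2 (0.57). With the number as a block 0 genes and 0 clock genes were called, and unadjusted p fell under 0.05 for 916 genes instead of 400. With class as a covariate both counts were also 0, and unadjusted p fell under 0.05 for 998 genes.

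The median of the tested clock genes, 0.20, lay between 0.05 and 0.48 over the other alternatives. With 1 library left out it lay between −0.04 (adult replicate 3) and 0.27 (aged replicate 3), and it was 0.00729 without aged replicate 2. The median of all genes moved from −0.11 to −0.02 by size factors, to 0.01 by quantile normalization and to 0.15 on removal of mitochondrial genes. The clock median stayed above it and was itself 0.30, 0.27 and 0.48 in these settings, in the same order. Both medians thus rose in each.

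A pseudocount of 0.1 moved all 8 differences away from 0 and one of 5 moved them toward it. Signs turned for Clock with mitochondrial genes removed (0.0691), without aged replicate 3 (−0.36 to 0.0712 over left-out libraries) and in libraries without Y-linked transcripts (0.25). They turned for Dbp with array weights (0.15), without adult replicate 1 (−0.56 to 0.00353) and in libraries with Y-linked transcripts (0.0454), for Nr1d1 without adult replicate 3 (−0.24 to 0.69), without aged replicate 2 (−0.14) and without Y-linked transcripts (−0.12), and for Per2 with array weights (−0.20). In libraries with Y-linked transcripts they turned for Ciart (−0.0303) and Per1 (−0.19), and in those without for Per3 (−0.11). Arntl kept its sign in each setting that tested it. It was not tested at a mean of 5 TPM, without adult replicate 1 or in the libraries with Y-linked transcripts.

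Between classes the count of clock genes called was 0, and became 1 with quantile normalization (Per3, adjusted p = 0.0401) and 1 with array weights (Nr1d1, adjusted p = 0.0199). With 1 library left out it was 0 to 1. Per1 was called without adult replicate 1 (adjusted p = 0.0467) or adult replicate 4 (0.0373), and Nr1d1 without aged replicate 1 (0.0374). The share of all genes called between classes was not computed in these settings, and was 12.4% in the main fit. Single calls are not told apart from such a background. The interaction count was 0 throughout. Unknown depth limits all genes near 1 TPM, Arntl, Npas2 and Cry1 most.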

Other observations

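Per1 varied over the 8 libraries together with Sgk1, a gene induced by aldosterone and glucocorticoids, a pair noticed in the values and then computed. Pearson's r on log2(TPM + 1) was 0.968 (n = 8, exact two-sided permutation p = 0.000174, adjusted p = 0.000521 over the 3 pairs computed), and Spearman's rho was 0.929 (exact permutation p = 0.00223, adjusted p = 0.00670). Without aged replicates 1 and 2, the libraries farthest from the median of Per1, r was 0.936 over 6 libraries. It was 0.9895 on deviations from the group means and 0.948 with size factors. Per1 with Tsc22d3, a glucocorticoid-induced gene, had r = 0.872 and rho = 0.810 (n = 8, exact permutation p = 0.00950 and 0.0218, adjusted p = 0.00950 and 0.0218), and r = 0.795 without those libraries. Per1 with Nfil3 had r = 0.880 and rho = 0.810 (exact permutation p = 0.00670 and 0.0218, adjusted p = 0.00950 and 0.0218), and r = 0.716 without them. The 3 pairs were chosen after their values were seen, out of many possible, so these p-values are too small. The permutation also treats the 8 libraries as exchangeable, though they share the split by Y-linked transcripts. Libraries with these transcripts were lower in Per1, Sgk1, Nfil3 and Tsc22d3 (log2 differences −1.07, −1.03, −0.72 and −0.47), though none passed. Deviations from the age group means do not take out this split.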
